A study of Mus musculus with 6 samples.

Results

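The genes described here serve the endocrine secretory granule and the processing of prohormones: Cpe, Pcsk1, Pcsk2, Pcsk1n, Chga, Chgb, Scg2, Scg3 and Scg5, together with Slc2a2, a beta cell glucose transporter. They were chosen by gene symbol, as every probe set that the platform annotation maps to one of these 10 genes, among 8252 named genes on the array. That gave 13 probe sets of 9 genes, of 12488 probe sets on the array, and 0 for Pcsk2. Of these, 9 probe sets of 7 genes were bright enough to be tested.

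The samples were the pancreas of 3 CFTR-/- mice, called CF here, and of 3 CFTR+/+ mice, called control, each array from a single male mouse. The CF mice were 57, 56 and 58 days old and the control mice 57, 56 and 57 days old in replicates 1, 2 and 3. All 6 mice, controls included, were gastrin+/-, on a background of 95% black6 and 5% 129Sv, and all ate Peptamen, given against intestinal obstruction, starting at 10 days of age. Total RNA was read as 1 intensity per probe set on a one-colour Affymetrix array, and the comparison asks which pancreatic transcripts differ without Cftr, the chloride and bicarbonate channel of epithelia.

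Endocrine cells store peptide hormones in dense-core granules. Inside the granule the prohormone is cut after pairs of basic residues by the convertases encoded by Pcsk1 and Pcsk2, and carboxypeptidase E, from Cpe, then trims the basic residues left at the cut ends. Chromogranins and secretogranins are acidic proteins that pack the granule core. In the pancreas this machinery belongs mainly to the islets, a small part of an organ made mostly of acinar cells, and nerve cells use it too. In whole-organ RNA, fewer endocrine cells and less RNA per endocrine cell cannot be told apart.

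Array medians lay between 207.8 and 234.4. Acinar markers were bright on every array, with 10 of 18 measured and a summed intensity of 575462 to 651820 in CF and 617892 to 841718 in control, and Ins2, the insulin gene that marks beta cells, read 16744 or more on all 6. The single Cftr probe set bright enough to test read 467, 314 and 364 in CF and 318, 223 and 338.5 in control. Where it lies with respect to the Cftr mutation is not stated here, and so it checks no label. Control replicate 1 is labelled as the entire pancreas, and the other 5 arrays as pancreas. The ratio of the 3' to the 5' probe set of Gapdh, which reflects RNA integrity, was 1.45 in control replicate 2 and 0.723 to 0.873 on the other 5 arrays.

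Promoter windows are shown for 4 of the members because Scg2 and Chgb among them ordered the arrays as Ins2, Iapp or Gcg did, though not as the other tested islet hormones did, as described further on, and because cyclic AMP-responsive promoters are well known in this gene family. RefSeq windows of GRCm38.p6, from 250 bases before to 50 after an annotated start, matched 9 of the 10 members. They were searched on both strands for the cyclic AMP response element TGACGTCA and for its half-site TGACG, which the full element contains on each strand. The full element stood in the windows of Scg2, Chgb and Pcsk1, against 1.79% of the 32851 windows of all genes, and the half-site in those of 7 members, against 20.8%. The first base of the full element lay 68 bases before the start in Scg2, 72 in Chgb and 78 in Pcsk1, and Chga had a half-site 44 bases before its start. Such a match describes the letters and shows no binding. Pcsk2, Scg3 and Scg5 held half-sites too and are not shown. Pearson's r with the mean log2 level of Ins2, Iapp and Gcg over the 6 arrays was 0.92 for Scg2 and 0.88 for Chgb. It was -0.74 for Pcsk1, which holds the full element, and 0.81 for Scg5, which does not. These are the hormones that ordered the arrays as Scg2 or Chgb did, and Sst and Ppy are left out of the mean. The values for Scg2 and Chgb thus restate that match, which was looked at after the values were seen. A link between these letters and the order of the arrays was not tested. Capitals mark the full element and the half-site, and each window reads 5′ to 3′ on the strand of its gene.
Scg2, chr1:79439977-79440276, - strand: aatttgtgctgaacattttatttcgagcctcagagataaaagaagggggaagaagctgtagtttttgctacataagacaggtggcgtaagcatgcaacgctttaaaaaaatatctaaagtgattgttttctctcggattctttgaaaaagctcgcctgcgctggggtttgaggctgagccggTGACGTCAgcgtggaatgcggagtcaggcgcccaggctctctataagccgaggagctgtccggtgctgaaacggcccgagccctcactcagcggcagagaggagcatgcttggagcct
Chgb, chr2:132781392-132781691, + strand: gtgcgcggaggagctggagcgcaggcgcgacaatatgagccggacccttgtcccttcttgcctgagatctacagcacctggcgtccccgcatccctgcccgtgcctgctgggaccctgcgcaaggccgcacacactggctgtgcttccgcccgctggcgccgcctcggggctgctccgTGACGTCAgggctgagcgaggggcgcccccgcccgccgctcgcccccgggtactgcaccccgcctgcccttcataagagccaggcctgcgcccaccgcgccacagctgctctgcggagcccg
Pcsk1, chr13:75089607-75089906, + strand: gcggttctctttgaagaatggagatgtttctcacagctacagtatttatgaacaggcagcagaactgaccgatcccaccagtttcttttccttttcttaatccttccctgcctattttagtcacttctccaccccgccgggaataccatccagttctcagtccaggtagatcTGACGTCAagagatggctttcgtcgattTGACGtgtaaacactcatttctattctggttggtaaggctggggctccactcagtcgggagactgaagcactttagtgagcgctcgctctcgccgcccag
Chga, chr12:102554691-102554990, + strand: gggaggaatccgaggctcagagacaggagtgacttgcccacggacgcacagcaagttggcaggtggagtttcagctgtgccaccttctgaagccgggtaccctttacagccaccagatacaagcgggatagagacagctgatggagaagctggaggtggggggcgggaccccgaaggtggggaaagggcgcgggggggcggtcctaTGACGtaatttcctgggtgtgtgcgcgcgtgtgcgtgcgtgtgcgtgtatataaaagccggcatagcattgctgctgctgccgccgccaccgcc

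Cpe, the carboxypeptidase gene, was lower on every CF array than on any control array, on both of its probe sets, but neither difference passed the test. On the probe set whose identifier ends in i_at it read 394, 371 and 896 in CF, against 1685, 1217 and 1811 in control. All 3 CF arrays lay below all 3 control arrays, with CF replicate 3 the closest to them. The means were 554 ± 297 in CF and 1571 ± 313 in control (SD, n = 3 each). On the log2 scale, where each fold here is taken between the means of log2 values and so differs from the ratio of the linear means, it was 3.05-fold lower in CF (log2 difference -1.61 ± 0.35 SE, adjusted p = 0.20 in limma).

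The other Cpe probe set, whose identifier ends in f_at, read 396, 459 and 841 in CF, against 1240.1, 954 and 1589 in control. Again the groups did not overlap. Its means were 565 ± 241 in CF and 1261 ± 318 in control, and between log2 means it was 2.31-fold lower in CF (log2 difference -1.21 ± 0.32, adjusted p = 0.32). The annotation pairs both Cpe probe sets with the same source sequence, and their log2 levels correlated at 0.98 over the arrays. They are thus not independent readings. Neither probe set passed the threshold of 0.05 over all 7739 tested probe sets, of which 0.0646% passed it and 5.62% were lower in CF without overlap. Without CF replicate 3, whose Cpe was the highest of its group, the i_at probe set passed at a log2 difference of -2.02 (adjusted p = 0.049), and over all other settings its adjusted p ran from 0.080 to 0.68.

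**Figure D1:**
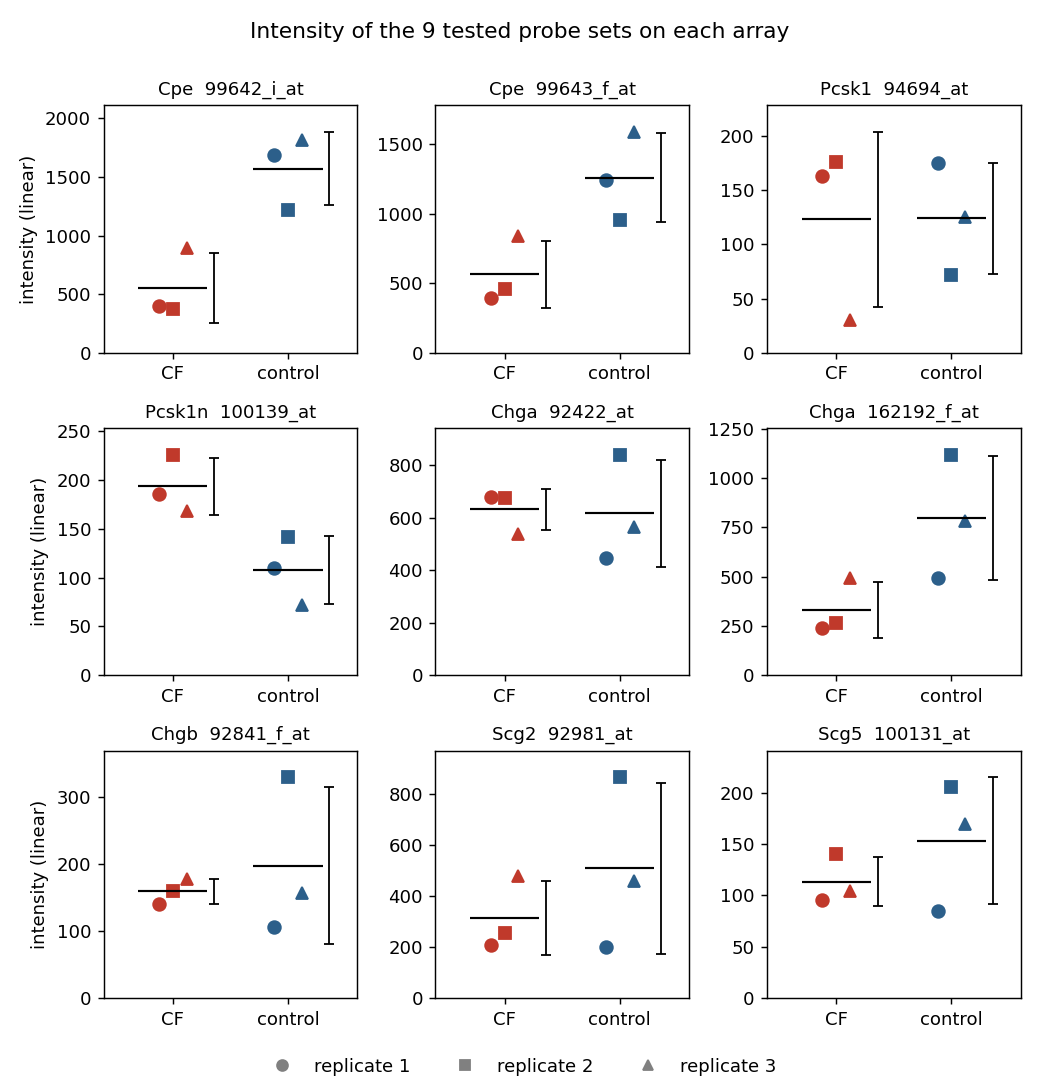
Intensity on a linear scale (vertical axis from 0) of the 9 tested probe sets on each array, CF left and control right in each panel; symbols are replicates, the horizontal bar is the mean and the vertical bar the SD (n = 3). Both Cpe probe sets are lower on all 3 CF arrays and Pcsk1n is higher on all 3, while the other panels overlap.

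Of the convertases and their partners, Pcsk1, which encodes the convertase that makes the first cuts in proinsulin, read 164, 176 and 30.3 in CF and 175, 71.6 and 126 in control. The groups overlapped, with CF replicate 3 the lowest array of all and under the floor of 47.6. Its log2 difference of -0.07 ± 0.67 had a 95% interval from -1.59 to 1.46, too wide to show whether it differed (adjusted p = 0.99).

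Pcsk1n, which encodes proSAAS, an inhibitor of that convertase, was the one tested member higher on every CF array. It read 186, 226 and 168.5 in CF, against 110, 141 and 72.2 in control. The lowest CF array, replicate 3, lay above the highest control array, replicate 2. The means were 193 ± 29.4 in CF and 108 ± 34.5 in control, and between log2 means it was 1.85-fold higher in CF (log2 difference 0.89 ± 0.45, 95% interval -0.13 to 1.91, adjusted p = 0.72), a difference that did not pass. With the floor at the 40th percentile, above 2 of its 3 control values, the log2 difference was 0.45.

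Scg5 encodes 7B2, the chaperone that the convertase PC2 needs in order to mature. It read 95.6, 140.3 and 104 in CF and 85.1, 205.5 and 169.6 in control, and passed the brightness filter, more than 140.2 on at least 3 arrays, with CF replicate 2 just inside it. The groups overlapped, and the log2 difference was -0.36 ± 0.51 (adjusted p = 0.92). Leaving out control replicate 2, the highest array, gave -0.10, and leaving out control replicate 1, the lowest, gave -0.74. For Pcsk2 itself, the convertase that 7B2 assists, no value is given here.

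The chromogranins and Scg2 pack the granule core. Chga, for chromogranin A, gave different answers on its 2 probe sets. The probe set whose identifier ends in f_at read 238, 263 and 494 in CF, against 491, 1118 and 784 in control. CF replicate 3, at 493.8, lay just above control replicate 1, at 490.9, and the groups overlapped by that pair of arrays alone. The log2 difference was -1.27 ± 0.38 (2.41-fold lower in CF between log2 means, adjusted p = 0.46).

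On the probe set with the plain ending at, by contrast, Chga read 680.0, 673 and 539 in CF and 445, 839 and 564 in control, and the log2 difference was 0.08 ± 0.27 (adjusted p = 0.97). Its 95% interval, -0.54 to 0.69, leaves out the value of the first probe set. The annotation pairs the plain probe set with an accession and the f_at one with none, and the suffix f marks, in Affymetrix naming, probe sets that may read similar sequences. Which of the 2 follows the Chga transcript was not tested.

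Chgb, for chromogranin B, read 140.2, 159 and 178 in CF and 106, 329.5 and 157 in control on its f_at probe set. The control arrays enclosed all CF values. The log2 difference was -0.16 ± 0.48 (adjusted p = 0.97). Its r_at probe set read 6.5, 88.4 and 4.8 in CF and 9.4, 8.1 and 5.0 in control, all but CF replicate 2 under the floor.

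Scg2, for secretogranin II, a granule protein that is also a precursor of the peptide secretoneurin, read 208, 255 and 478 in CF, against 201, 864 and 458 in control. Both groups spread widely and overlapped. The means were 314 ± 144 in CF and 508 ± 335 in control (log2 difference -0.55 ± 0.53, adjusted p = 0.88). Leaving out control replicate 2, the brightest array for Scg2, gave -0.05, and leaving out control replicate 1, the dimmest, gave -1.10.

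Both Scg3 probe sets and that of Slc2a2 were too dim to test. Scg3, for secretogranin III, a partner of chromogranin A at the granule membrane, read 143.5, 143 and 31.8 in CF and 39.6, 63.8 and 117 in control on its f_at probe set. On its plain probe set it read 12.3, 13.3 and 56.5 in CF and 11.1, 22.5 and 13.2 in control. Slc2a2, for the glucose transporter GLUT2, read 19.6, 39.3 and 79.7 in CF and 14.5, 104.7 and 15 in control. With 4 of its 6 values under the floor, no fold is given.

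In sum over the tested members, 0 of 9 probe sets passed the adjusted threshold in limma, against 0.0646% of all tested probe sets. At an unadjusted p under 0.05 there were 3, both of Cpe and the f_at one of Chga, where 7.38% of all tested probe sets lay. Without overlap, 2 probe sets were lower in CF, both of Cpe, where 5.62% of all tested probe sets were lower without overlap, and 1 was higher, of Pcsk1n, where 7.37% were. Taking for each gene its probe set with the highest mean, 5 of the 7 tested genes had a negative difference and 2 a positive one, with a median log2 difference of -0.16, beside -0.003 over all 5804 named genes tested. For Chga that took the plain probe set, at 0.08, and left out the f_at one, at -1.27, so the count and the median depend on that choice. Members that passed the brightness filter may have done so through the group in which they read higher, as Pcsk1n did through CF. The members as a list were not tested.

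**Figure D2:**
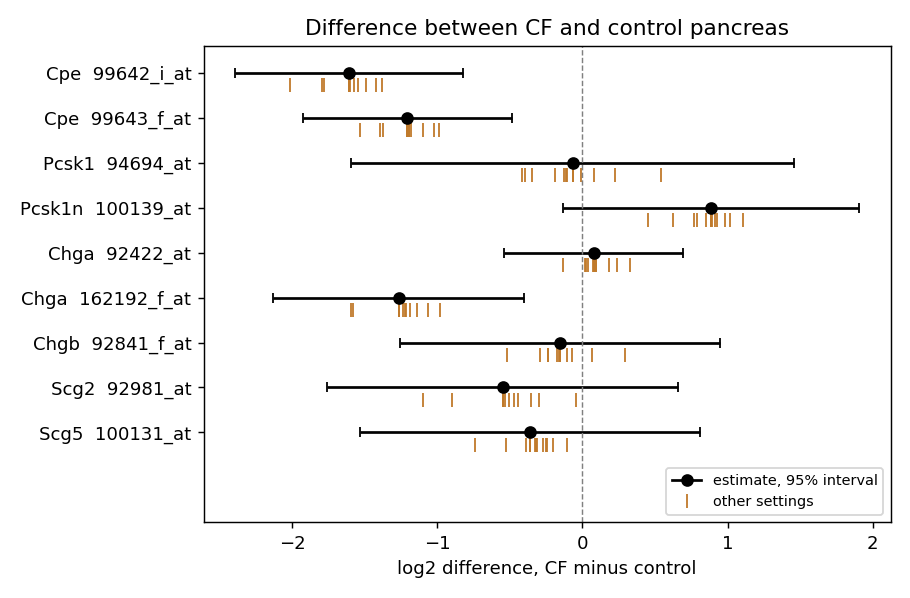
Log2 difference, CF minus control (horizontal axis), of the 9 tested probe sets, with black points for the estimate, black bars for its 95% interval and orange ticks for the other settings. Every tick of both Cpe probe sets, of the f_at probe set of Chga, of Scg2 and of Scg5 lies below 0. Every tick of Pcsk1n lies above 0, while those of Pcsk1, Chgb and the plain probe set of Chga fall on both sides.

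Scg2 and Chgb ordered the 6 arrays as 3 of the 5 tested islet hormone genes did, Ins2, Iapp and Gcg, and not as Sst or Ppy did. On its tested probe set, which ends in f_at, Ins2 read 18824, 30857 and 53156 in CF and 16744, 69135 and 48284 in control. Iapp, for the beta cell peptide amylin, read 1263, 2304 and 3717 in CF and 777, 4656 and 2720.1 in control. Scg2 put the 6 arrays in the same order as these probe sets of Ins2 and Iapp. From high to low it was control replicate 2, CF replicate 3, control replicate 3, CF replicate 2, CF replicate 1 and control replicate 1. A dim Ins2 probe set ending in r_at, not tested, read 114, 126 and 128 in CF and 54.1, 243 and 109 in control. It had the same highest and lowest arrays, but placed control replicate 3 below CF replicates 1 and 2. Chgb put them in the order of Gcg, the glucagon gene, which read 449, 878 and 915 in CF and 323, 1472 and 814 in control, and which differs from the order of Ins2 only in placing CF replicate 2 above control replicate 3. Sst, for somatostatin, read 208, 175 and 453 in CF and 110, 618 and 150.2 in control, with the same highest and lowest arrays but another order between them. Ppy, for pancreatic polypeptide, went otherwise on the probe set ending in f_at, with 718, 712 and 516 in CF and 552, 626.5 and 527 in control, and read 321, 326 and 302 in CF and 202, 387 and 344 in control on its plain one.

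Control replicate 2 was the highest and control replicate 1 the lowest array for Scg2, Chgb, Scg5 and the plain probe set of Chga, 4 of the 9 tested probe sets, and also for the dim Slc2a2. Of all tested probe sets, 4.29% had that pair of extremes. Those are also the array with the Gapdh ratio of 1.45 and the array labelled as the entire pancreas, and the part of either in this order was not tested. This comparison of orders was chosen after the values were seen.

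Cpe, Pcsk1n and Pcsk1 ordered the arrays otherwise. Control replicate 1, the lowest for Ins2, Iapp, Gcg and Sst but not for the f_at probe set of Ppy, was the second highest for both Cpe probe sets, and CF replicate 3, the second highest for Ins2, Iapp and Gcg, was below every control array for Cpe. The mean log2 level of Ins2, Iapp and Gcg, without Sst and Ppy, was used as a covariate, a setting added after seeing the data. With it the Cpe differences were -1.60 ± 0.36 and -1.20 ± 0.33. That of Pcsk1n was 0.89 ± 0.48 and that of Scg2 -0.47 ± 0.27. About its mean, the covariate ran from -0.78 to 0.58 in CF and from -1.23 to 1.04 in control. Its group averages lay close together, so it could move these differences little, whatever their source. The part of islet content in them was not tested. The hormone genes themselves, with 6 of 8 measured and 5 tested, had a median log2 difference of 0.05, 3 of them positive and 2 negative, and 0 passed. For Ins2 it was -0.29 ± 0.52 (adjusted p = 0.94).

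**Figure D3:**
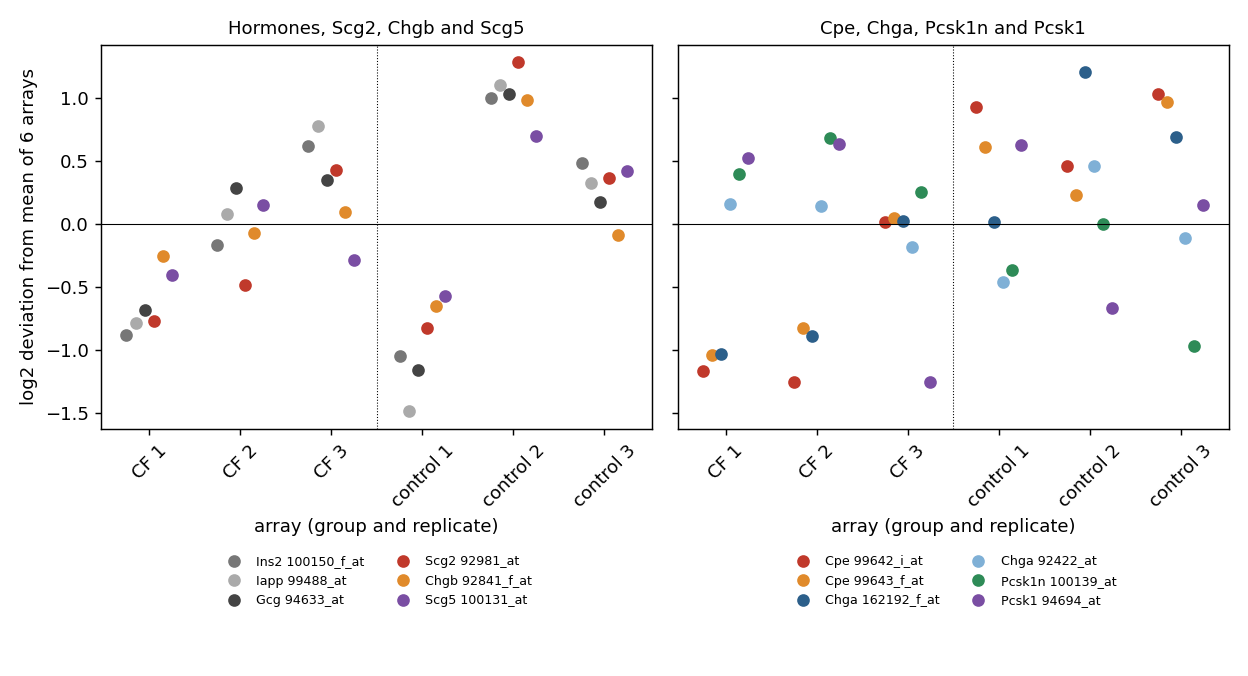
Log2 deviation from the mean of the 6 arrays (vertical axis) for each array (horizontal axis, CF left of the dotted line and control right of it), with Ins2, Iapp, Gcg, Scg2, Chgb and Scg5 in the left panel and Cpe, Chga, Pcsk1n and Pcsk1 in the right one. All 6 series on the left are highest in control replicate 2 and lowest in control replicate 1, while both Cpe series on the right lie above the mean in every control array.

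Other cell types that may hold Cpe or granin transcripts were read on the same arrays. Of 18 neuron and glia markers, 13 were measured, with summed intensities of 3002 to 3425 in CF and 2452 to 3494 in control. Nefm, a neurofilament gene, was under the floor on all arrays, and of the 6 tested 2 were higher in CF, 4 lower and 0 passed (median log2 difference -0.02). Stmn2, a neuron growth gene, read 659, 599 and 401 in CF and 475, 356 and 366 in control, and Uchl1, a neuron and endocrine cell gene, 227, 138.5 and 257 in CF and 648, 152 and 114 in control. Adipocyte markers, 12 of 14 measured, summed to 5956 to 7741 in CF and 7670 to 18433 in control, with 8 of 9 tested members lower in CF and 0 passing (median -0.82). Adipoq, the fat cell hormone, read 721, 54.2 and 58.2 in CF and 5591, 187 and 1899 in control. Control replicates 1 and 3, the highest in that sum and in Adipoq, were also the highest for Cpe. The other arrays did not all follow. CF replicate 1 read above control replicate 2 in the sum (7741 against 7670) and in Adipoq, and below it on both Cpe probe sets. The part of fat tissue in the Cpe difference was not tested.

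Hepatocyte markers, 11 of 12 measured, summed to 2179 to 3100 in CF and 2011 to 3339 in control, with 1 of 4 tested members higher, 3 lower and 0 passing (median -0.35), and with the fibrinogen gene Fgb under the floor on all arrays. Of 10 intestinal and enteroendocrine markers 7 were measured, with a summed intensity of 8386 to 12696 in CF and 8632 to 12492 in control. Nearly all of that sum came from Sct, for secretin, the only one bright enough to test. Its probe set, ending in f_at, read 8149, 12343 and 12094 in CF and 8404, 12123 and 10238 in control, and differed by 0.07 ± 0.21. Cck and Vil1 were under the floor on all arrays. Duct markers, 15 of 18 measured, summed to 49409 to 56361 in CF and 39862 to 48183 in control, with 10 of 14 tested members higher, 4 lower and 0 passing (median 0.20). Of 9 tested acinar markers 1 was higher, 8 were lower and 0 passed (median -0.19).

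Genes around the members in the same pathway did not pass either. Among other proprotein convertases and prohormone trimming enzymes, 9 of 14 were tested, 3 higher and 6 lower in CF (median log2 difference -0.05). Ctsl, the lysosomal protease cathepsin L, which also cuts prohormones in secretory vesicles, read 8006, 10367 and 6412 in CF, against 4365, 4065 and 4634 in control, without overlap (log2 difference 0.90 ± 0.19, adjusted p = 0.20). Pcsk6, a convertase of the constitutive pathway, read 796, 664 and 828 in CF, against 937, 1044 and 1060.4 in control, also without overlap (-0.42 ± 0.18, adjusted p = 0.67). Cpn1, a circulating carboxypeptidase, differed by -0.29 ± 0.19 and Pcsk5 by -0.57 ± 0.65.

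Of 34 other genes of the dense-core granule and of regulated exocytosis, 11 were tested, 7 higher and 4 lower in CF (median 0.12), while Snap25, Syt4 and Syt7, of the vesicle fusion machinery, were under the floor on all arrays. Rab3a, a small GTPase on secretory vesicles, differed by -0.43 ± 0.34, its acinar relative Rab3d by 0.17 ± 0.15, the peptide-amidating enzyme gene Pam by 0.70 ± 0.81 and the fusion regulator gene Cplx2 by 0.22 ± 0.28. Of 16 beta cell glucose sensing and ion channel genes, 5 were tested, 1 higher and 4 lower (median -0.13). Ero1b, an oxidase that helps proinsulin fold, read 3808, 2962 and 3071 in CF, against 3941, 4943 and 4127 in control, without overlap (-0.40 ± 0.17, adjusted p = 0.66). The potassium channel genes Abcc8 and Kcnj11 differed by -0.39 ± 0.33 and 0.09 ± 0.74, and the calcium channel gene Cacnb2 by -0.13 ± 0.21.

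Islet transcription factors had 5 of 18 genes tested, all 5 with a negative difference (median -0.65), where 50.4% of all named genes tested had one, and 0 passed. The brightness filter may have favoured that sign, so the count beside that percentage is no test of the list. Pax6, needed for islet hormone genes, read 125, 143.2 and 72.7 in CF, against 175, 199.8 and 144 in control, with 143.2 in CF replicate 2 next to 144 in control replicate 3 (-0.65 ± 0.46, adjusted p = 0.81). Insm1, Foxa2 and Pax4 differed by -0.83 ± 0.59, -0.90 ± 0.86 and -0.35 ± 0.45, with overlap in each, and Isl1 and Neurog3 were under the floor on all arrays. Pax6, Insm1 and Foxa2 read above the filter level on every control array but not on every CF array. Pax4 read above it on all arrays. Among 6 other facilitative glucose transporters, relatives of GLUT2, 2 were tested and both were lower in CF (median -0.80). They were Slc2a8, at -0.46 ± 0.21, and Slc2a3, at -1.13 ± 0.59.

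The genes most like the mean pattern of the tested members were Mobp, Kansl2, Batf3, Slc35g3, Got2 and Inpp4a, with Pearson's r of 0.98 to 0.99 over the 6 arrays against the mean of the standardized levels of the 7 tested members. That mean was highest in control replicate 2, at 0.825, and lowest in control replicate 1, at -0.53. It is not the pattern of each member, as Cpe, Pcsk1n and Pcsk1 ordered the arrays otherwise. Mobp read 699, 857 and 706 in CF and 558, 1621 and 781 in control. It had the same pair of extremes, control replicates 2 and 1, as Scg2 and Chgb. With 5804 genes and 6 arrays, high values of r are a description only.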

How the data were processed

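The authors deposited 1 linear intensity for each probe set on each array, from TRIzol-extracted total RNA per the labels' protocols. The software and scaling behind them were not given in the sources used here. Means without the 2% of values at either end were 500.27 to 500.3 on all arrays, so no further scaling was applied. Groups came from the genotype in the descriptions, and replicates 1 to 3 from the title suffix. Intensities were floored at the 20th percentile of all arrays together (47.6) and converted to log2. Without the 66 control probe sets, those above the pooled 40th percentile (140.2) on at least 3 arrays were tested (7739). Differences are CF minus control from limma 3.58.1 (R 4.3.3; lmFit, eBayes with an intensity trend), adjusted by Benjamini-Hochberg over all tested probe sets at 0.05. Folds are between means of these log2 values, so the floor understates changes of dim genes. The 3 arrays a group limit the precision.

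Symbols came from the platform annotation, updated by gene identifier to RefSeq of GRCm38.p6; 10855 probe sets had 1 symbol, 396 several and 1237 none. The members and lists were chosen with earlier results of these data known. Every member probe set is named, up to 4 genes of smallest p per list, and the 6 genes most like the mean of the members. After subtracting group means, arrays of 1 suffix correlated at 0.23 to 0.26 and the others at -0.18 to -0.05, so the suffix was read as pairing. Deviations from a group mean sum to 0, so positive values in the first range go with negative ones in the second. The second range is thus no separate sign of pairing. The main fit, from which the differences above come, leaves that pairing out, and a replicate block is an alternative setting. With the block, the i_at probe set of Cpe kept its log2 difference of -1.61. Its SE was 0.23 in place of 0.35, and its adjusted p in limma was 0.15 in place of 0.20. On simulated data for these 7739 probe sets the fit called 25.1% at a true log2 change of 1, 66% at 2, 90.6% at 4, and 35 of 37695 unchanged ones. The simulated noise was independent between arrays and probe sets. It held neither the pairing by suffix nor other effects shared within an array, so the rates may differ on the real data.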

Additional observations from a re-analysis of the deposited data

How the results depend on the processing

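Of 140 differences of the 9 tested probe sets under 16 other settings, 134 kept their direction and 1 passed the threshold. The number of members past the threshold was 0 to 1 when single arrays were left out, the 1 being the i_at probe set of Cpe without CF replicate 3, and 0 under every other setting. Cpe ran from -2.02 to -1.38 on that probe set and from -1.53 to -0.99 on the other, and Pcsk1n from 0.45 to 1.11. Turned to the other sign were Pcsk1 with the floor at the 40th percentile (0.077), without CF replicate 3 (0.54) and without control replicate 1 (0.23), Chgb with array weights (0.065) and without control replicate 2 (0.29), and the plain probe set of Chga without control replicate 1 (-0.13). With single arrays left out, Pcsk1 ran from -0.42 to 0.54, Chgb from -0.52 to 0.29 and that Chga probe set from -0.13 to 0.33. Each turned value was smaller than its standard error, and the cause was not tested. With the suffix as a replicate block, 0 members passed, the lowest adjusted p among them was 0.15, that of the same probe set, and calls over all probe sets numbered 10 in place of 5. They numbered 10 with the floor at the 40th percentile, 12 with array weights, 9 with the hormone covariate, 3 without an intensity trend, 0 with no filter, where 12420 probe sets were tested, and 1 to 11 when single arrays were left out. The filter at the 60th percentile left no value for Pcsk1, Pcsk1n, Chgb and Scg5.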
